A study of Canis lupus familiaris with 8 samples.

Results

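The 10 genes described here, MANF, SDF2L1, PDIA4, PDIA6, HYOU1, CRELD2, XBP1, HERPUD1, ATF6 and ERN1, fold proteins in the endoplasmic reticulum (ER) or signal when folding there fails. They were taken by gene symbol from the 30424 genes of the deposited expression table, in which all 10 have a single row, and all 10 passed the filter on low values that left 11485 genes for testing. RNA of dog cells was sequenced in 8 libraries. JuB2, a canine hemangiosarcoma cell line, gave 3 libraries with a scramble short hairpin RNA (shRNA), 3 labelled as a KDM2B knockdown by shRNA and 1 non-treated library. The remaining library, EC, is labelled as non-treated normal endothelial cells of the source CnAOEC. Column names show a single scramble (scr1) and a single KDM2B hairpin (shA), so each group stands for 1 hairpin. Levels are TPM, transcript abundances scaled to a fixed total, a share corrected for transcript length. Levels can thus be compared between genes of a library. A comparison between libraries depends on what else fills the total, so other scalings are given below.

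The ER lumen is where secreted and membrane proteins fold, form disulfide bonds and receive their glycans. When unfolded proteins accumulate, the sensors IRE1 (encoded by ERN1), ATF6 and PERK start the unfolded protein response. IRE1 splices the XBP1 transcript into the message of an active transcription factor, ATF6 is cut in the Golgi to release another, and PERK slows translation and favours that of ATF4. The genes they induce encode chaperones, disulfide isomerases and the machinery of ER-associated degradation. Tumour cells and cells that secrete much protein are known to rely on this response. Gene-level TPM does not separate spliced from unspliced XBP1 and holds no measure of ATF6 cleavage, so the activity of the sensors was not measured here.

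Several features of the libraries bear on what follows. KDM2B, the targeted gene, was at 14.01, 15.01 and 12.89 TPM in scramble, compared with 20.88, 19.69 and 18.25 TPM with KDM2B shRNA, which goes against the label. Every direction below refers to libraries so labelled. Of 13 endothelial markers with a row, 6 reached 1 TPM in EC, where PECAM1, VWF and TIE1 were listed at 0, which can be a failed estimate, and CDH5 stood at 0.64 TPM. Those 6 went both ways. ERG, FLT1, EMCN and TEK, at 21.93, 13.16, 3.11 and 2.38 TPM in EC, were above every JuB2 library. KDR and EGFL7, at 1.24 and 1.93 TPM in EC, were below every JuB2 library. The endothelial markers summed to 45.2 TPM in EC and to 30.6 TPM in untreated JuB2. The 11 smooth muscle and fibroblast markers summed to 33564 TPM in EC and to between 867 and 1717 TPM in the 7 JuB2 libraries, so EC is named below by its label only. In the JuB2 hairpin libraries this sum was 1656 to 1717 TPM in scramble and 867 to 939 TPM with KDM2B shRNA, and the endothelial sum was 22.5 to 26.9 and 34.5 to 45.3 TPM. Single markers did not all follow these sums. COL1A2 was at 635.8 to 657.12 against 211.38 to 232.08 TPM, but COL3A1 at 337.65 to 347.69 against 358.44 to 387.89 TPM. EGFL7 was at 6.7 to 10.58 against 17.01 to 17.33 TPM, but FLT1 at 11.4 to 12.69 against 10.3 to 12.29 TPM. ERG was at 9.22, 7.42 and 0.0 TPM with KDM2B shRNA. Leukocyte markers were near 0 apart from CD79A, at 1617.29 TPM or more in each library, and the 3 epithelial markers summed to at most 4.33 TPM in JuB2 and to 124 TPM in EC. The 13 mitochondrially encoded genes took 17.3 to 18.9% of the TPM in scramble and 11.3 to 12.6% with KDM2B shRNA. Whether any of these differences has a part in the results below was not tested, and in bulk RNA fewer cells of a type and less RNA per cell cannot be told apart. The number of reads is unknown, since TPM keeps none. Nothing in the labels says that replicates were separate cultures, so p-values reflect differences among these samples that may be purely technical.

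The 6 members that work inside the ER lumen rose in the libraries labelled KDM2B shRNA, while the sensors and the transcription factor of the response did not rise. The rise was no trait of luminal genes at large. Among 13 other tested luminal chaperones and co-chaperones 2 rose (15.4%, against 33.3% of all genes tested) and 4 fell (30.8%, against 17.6%). MANF, SDF2L1, CRELD2, PDIA6, PDIA4 and HYOU1 were 1.25-fold to 1.81-fold above scramble. XBP1 was 0.819 of its scramble level, and HERPUD1, ERN1 and ATF6 did not pass the test. The summed level of the 6 luminal members went from 1276, 1308 and 1292 TPM in the 3 scramble libraries to 2059, 2028 and 1980.3 TPM. That of the other 4 members went from 338, 302 and 283 TPM to 262, 256 and 256 TPM. In scramble MANF (393 TPM on average) and PDIA6 (385 TPM) were the most abundant members and differed by less than their spread. XBP1, HYOU1, PDIA4 and SDF2L1 followed at 197, 172, 171 and 139 TPM, of which HYOU1 and PDIA4 were not apart beyond their spread, and HERPUD1, CRELD2, ATF6 and ERN1 came last at 72.5, 32.0, 26.9 and 11.2 TPM.

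**Figure D1:**
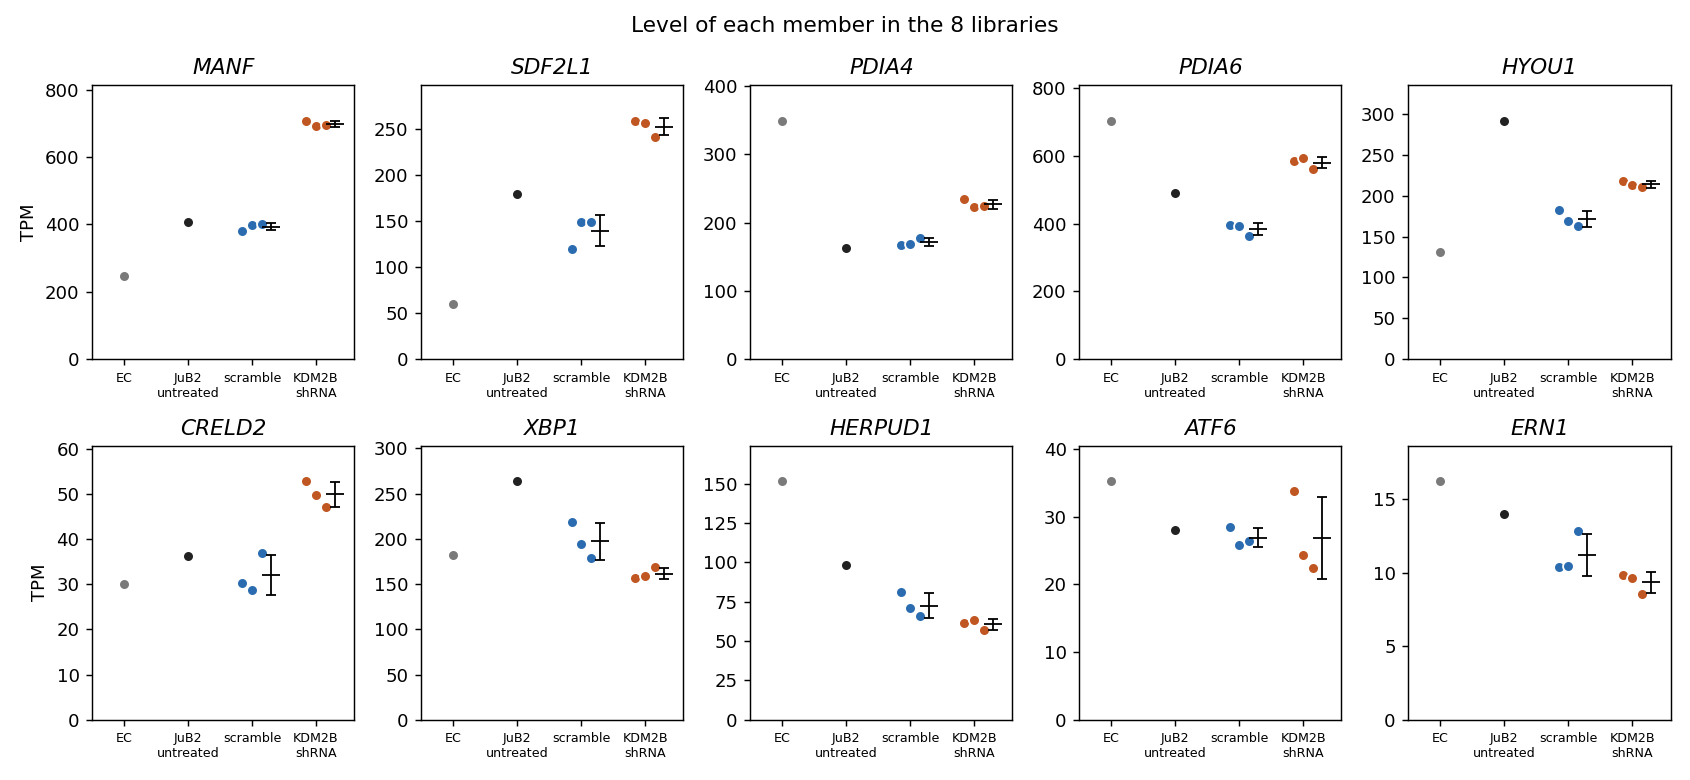
TPM (vertical axes, starting at 0) of each of the 10 members in EC, untreated JuB2, 3 scramble and 3 KDM2B shRNA libraries; points are libraries, and horizontal marks with bars are the mean ± SD of the 3 libraries of a group. MANF lies at 380.06 to 401.18 TPM in scramble, compared with 691.64 to 708.0 TPM with KDM2B shRNA, and for HYOU1, XBP1, HERPUD1 and ERN1 the untreated library lies above all 6 hairpin libraries.

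MANF encodes a small secreted protein of the ER that binds the chaperone BiP and is released when ER calcium falls. It stood at 380.06, 399.25 and 401.18 TPM in scramble, compared with 708.0, 691.64 and 695.6 TPM with KDM2B shRNA. The groups lay far apart, and libraries within a group differed little. On the log2(TPM + 1) scale the difference was 0.83 ± 0.04 (standard error; limma, adjusted p = 2.37e-05, n = 3 per group), with a 95% interval of 0.73 to 0.93. MANF was the most abundant member in each library with KDM2B shRNA.

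SDF2L1 is a subunit of the ER chaperone complexes that hold BiP and its co-chaperone DNAJB11. It was at 120.02, 148.96 and 149.17 TPM in scramble, compared with 258.98, 256.01 and 241.6 TPM with KDM2B shRNA. Scramble library 1 lay below its group, and the groups did not overlap. The difference of 0.86 ± 0.09 (standard error; limma, adjusted p = 0.000265) was close to that of MANF. CRELD2, an ER-resident protein induced by ER stress, was lower in level, at 30.25, 28.64 and 37.0 TPM against 52.78, 49.88 and 47.07 TPM. Its groups did not overlap either, and its difference was 0.63 ± 0.11 (limma, adjusted p = 0.00254).

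The disulfide isomerases PDIA6 and PDIA4 form and rearrange disulfide bonds in client proteins. PDIA6 was at 396.75, 394.0 and 364.03 TPM in scramble, compared with 586.64, 594.68 and 561.46 TPM with KDM2B shRNA. PDIA4 was at 166.92, 168.41 and 177.91 TPM against 234.08, 222.38 and 224.37 TPM. Every KDM2B shRNA library exceeded every scramble library for both genes. The differences were 0.59 ± 0.05 for PDIA6 (limma, adjusted p = 0.000115) and 0.41 ± 0.05 for PDIA4 (limma, adjusted p = 0.000665). That of PDIA4 was 0.25 with trimmed-mean scaling and 0.27 with quantile normalization (adjusted p = 0.00625 and 0.00498).

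HYOU1, also called GRP170, is a large chaperone related to HSP70 that exchanges the nucleotide of BiP. It had the smallest rise of the 6, from 182.23, 169.19 and 163.11 TPM to 218.17, 213.17 and 210.15 TPM. The groups did not overlap, and the difference was 0.32 ± 0.06 (limma, adjusted p = 0.00323). It was 0.17 with trimmed-mean scaling, in which the median gene does not carry the shift described below, with an adjusted p of 0.0307.

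XBP1, the transcription factor downstream of IRE1, fell slightly. It stood at 218.7, 194.32 and 178.52 TPM in scramble, compared with 156.77, 159.05 and 168.36 TPM with KDM2B shRNA, so the groups were separated only by the narrow gap between scramble library 3 and library 3 labelled KDM2B shRNA. The difference was -0.28 ± 0.08 (limma, adjusted p = 0.021). It no longer passed without scramble library 1 (-0.21, adjusted p = 0.0518) or without library 1 or 2 labelled KDM2B shRNA (adjusted p = 0.0618 and 0.0593), nor without an intensity trend in the fit (adjusted p = 0.0569). With trimmed-mean scaling it was -0.43 (adjusted p = 0.00306).

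HERPUD1 sits in the ER membrane and brings substrates to the degradation complex around the ubiquitin ligase SYVN1. It was at 80.92, 70.91 and 65.74 TPM in scramble, compared with 61.51, 63.16 and 56.98 TPM with KDM2B shRNA. Its groups did not overlap, but the gap between them was narrow and the difference of -0.25 ± 0.09 did not pass (limma, adjusted p = 0.0538). With trimmed-mean scaling it was -0.40 and passed (adjusted p = 0.00635), and so it did without scramble library 3 (-0.32, adjusted p = 0.0336).

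The sensor genes were the least abundant members in the JuB2 libraries. ERN1 was at 10.39, 10.44 and 12.88 TPM in scramble, compared with 9.88, 9.63 and 8.54 TPM with KDM2B shRNA. All KDM2B shRNA libraries lay below scramble, but the difference of -0.24 ± 0.14 did not pass (limma, adjusted p = 0.185, 95% interval -0.56 to 0.08). It passed with quantile normalization (-0.40, adjusted p = 0.041).

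ATF6 was at 28.45, 25.85 and 26.34 TPM in scramble, compared with 33.72, 24.31 and 22.46 TPM with KDM2B shRNA. Library 1 labelled KDM2B shRNA was above all scramble libraries and the other 2 were below them. The difference of -0.02 ± 0.15 had a 95% interval of -0.38 to 0.33 (limma, adjusted p = 0.913), so a change of either sign up to about that size was not detectable. Without library 1 labelled KDM2B shRNA it was -0.19 (adjusted p = 0.176).

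Of the 10 members 6 were called higher and 1 lower, and 3 did not pass. The members were chosen with earlier results of these data known, so these counts are descriptions and no independent evidence of a direction. Over all 11485 genes tested limma called 33.3% higher and 17.6% lower. Groups were fully separated for 9 members, 6 of them higher and 3 lower with KDM2B shRNA. Over all genes 38.3% lay wholly higher and 20.9% wholly lower. The median difference of the members was 0.36 on the log2 scale, against 0.16 for all genes tested. This shift of the median gene depends on how libraries are scaled: it was 0.02 with trimmed-mean scaling and with quantile normalization. The same 6 members were called higher under both, with 24.4% and 24.8% of all genes higher. The members called lower were then 2 and 3, with 23.9% and 23.4% of all genes lower.

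**Figure D2:**
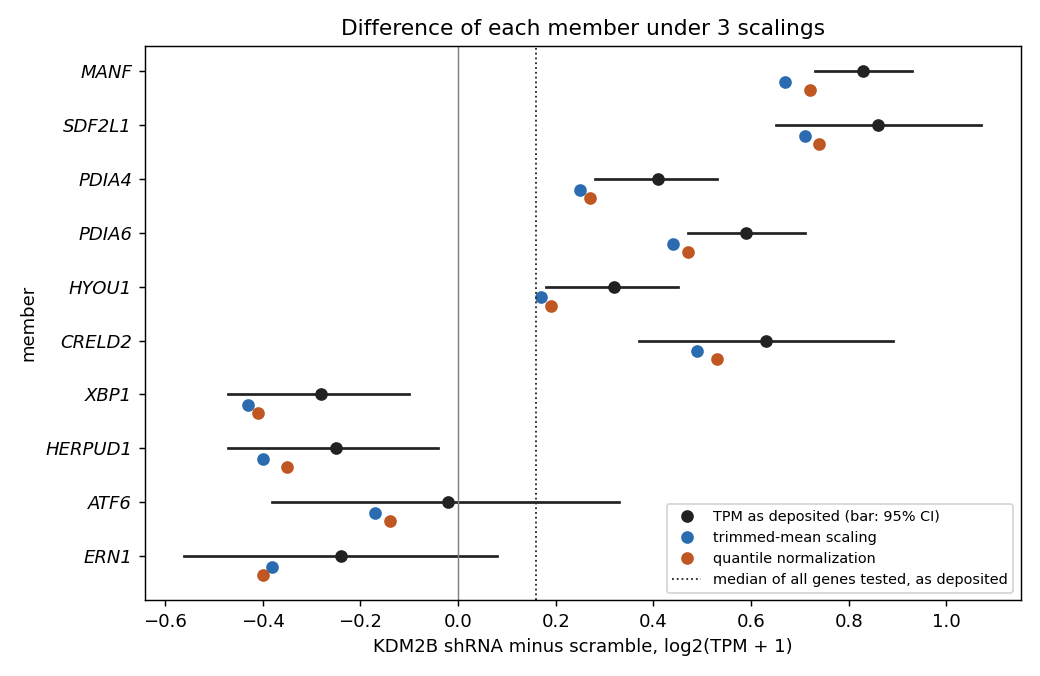
Difference between KDM2B shRNA and scramble libraries on the log2(TPM + 1) scale (horizontal axis) for each member (vertical axis) with TPM as deposited (black, bar: 95% confidence interval), trimmed-mean scaling (blue) and quantile normalization (orange); the dotted line is the median of all genes tested. The 6 luminal members lie right of 0 under all 3, from 0.17 to 0.86, and the other 4 lie left of it.

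HSPA5, which encodes BiP, the main HSP70 chaperone of the ER and the partner of MANF, SDF2L1 and HYOU1, went the other way. It was at 518.62, 474.24 and 478.86 TPM in scramble, compared with 289.38, 297.11 and 284.31 TPM with KDM2B shRNA. It fell by 0.75 on the log2 scale (standard error 0.05; limma, adjusted p = 5.26e-05), and by 0.91 with trimmed-mean scaling. HSP90B1, the HSP90 chaperone of the ER also called GRP94, rose from 679.08, 675.11 and 651.01 TPM to 951.38, 935.38 and 926.29 TPM (0.49 ± 0.04; limma, adjusted p = 8.26e-05).

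Ratios between genes within a library do not change when the library is divided by a single factor, as in trimmed-mean scaling. Quantile normalization can change them. MANF was at 0.733, 0.842 and 0.838 of HSPA5 in scramble and at 2.45, 2.33 and 2.45 of it with KDM2B shRNA. HYOU1 was at 0.351, 0.357 and 0.341 of HSPA5 against 0.754, 0.717 and 0.739, and SDF2L1 at 0.231, 0.314 and 0.312 against 0.895, 0.862 and 0.85. PDIA6 stood at 0.765, 0.831 and 0.76 of HSPA5 against 2.03, 2.0 and 1.97. For all 10 members every KDM2B shRNA library had a higher ratio than every scramble library, since HSPA5 fell by more than XBP1, HERPUD1, ERN1 or ATF6. This separation is no trait of the members, because the fall of HSPA5 raises the ratio of any gene that did not change. The share of all genes separated in this way is not given here. In untreated JuB2 the ratio of HYOU1 to HSPA5, 0.362, was close to scramble although both genes were higher there, and that of MANF, 0.505, was below scramble. The ratio of XBP1 to ERN1 showed no such separation, at 21.0, 18.6 and 13.9 in scramble and 15.9, 16.5 and 19.7 with KDM2B shRNA. The ratios are given as descriptions, with no test, since 3 libraries against 3 cannot give an exact permutation p under 0.1.

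**Figure D3:**
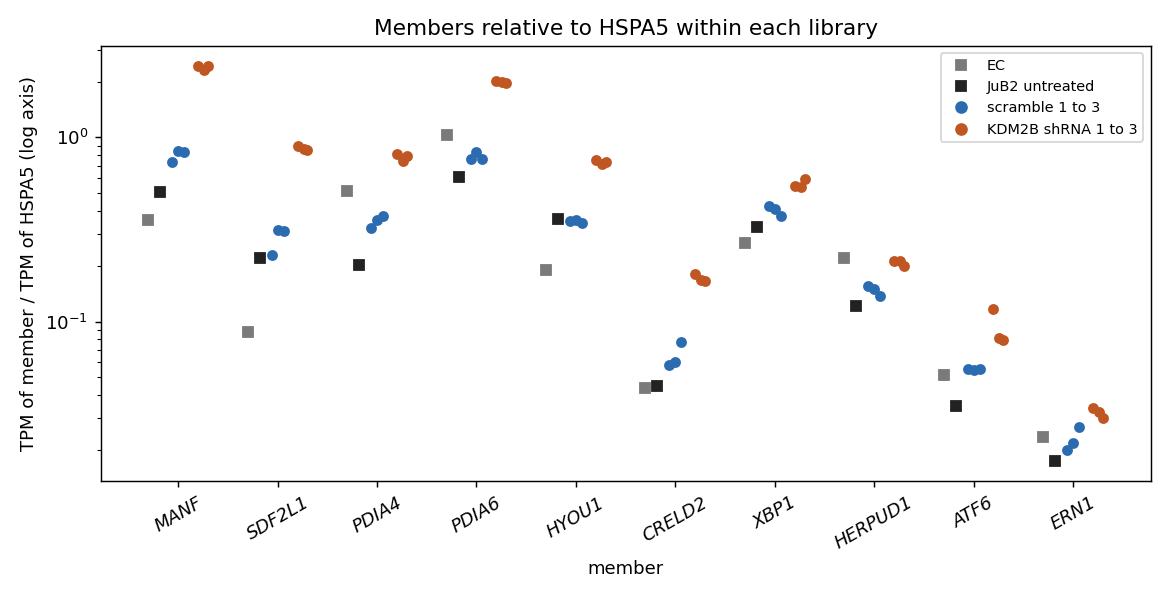
TPM of each member divided by TPM of HSPA5 in the same library (vertical log axis); squares are EC (grey) and untreated JuB2 (black), circles the 3 scramble (blue) and 3 KDM2B shRNA (orange) libraries. The orange circles lie above the blue ones for all 10 members, for MANF at 2.33 to 2.45 against 0.733 to 0.842. The divisor HSPA5 is itself lower in the KDM2B shRNA libraries, which raises every ratio.

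The untreated JuB2 library shows which levels the scramble libraries shared with unmanipulated cells. It is a single library, so its distance to the others has no test. MANF was at 407.17 TPM there, near scramble and far below the libraries labelled KDM2B shRNA. CRELD2, at 36.18 TPM, and ATF6, at 28.08 TPM, lay within the scramble range, and PDIA4, at 162.84 TPM, lay just below it.

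For HYOU1, XBP1, HERPUD1 and ERN1 the scramble mean lay farther from untreated cells than from KDM2B shRNA. HYOU1 was at 291.9 TPM in untreated JuB2, above all 6 hairpin libraries, so that the KDM2B shRNA libraries lay between scramble and untreated cells. On the log2 scale HYOU1 differed from untreated JuB2 by -0.77 in scramble and by -0.45 with KDM2B shRNA. PDIA6, at 492.22 TPM, and SDF2L1, at 178.91 TPM, lay between the groups. Among the JuB2 libraries XBP1, HERPUD1 and ERN1 were highest in the untreated one, at 263.51, 98.61 and 14.03 TPM, and lowest with KDM2B shRNA. HSPA5 had the same order among them, at 806.48 TPM in untreated JuB2. In all, 4 of the 10 members were above every hairpin library in untreated cells and 1 was below, where 16.5% and 21.7% of all genes tested were.

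**Figure D4:**
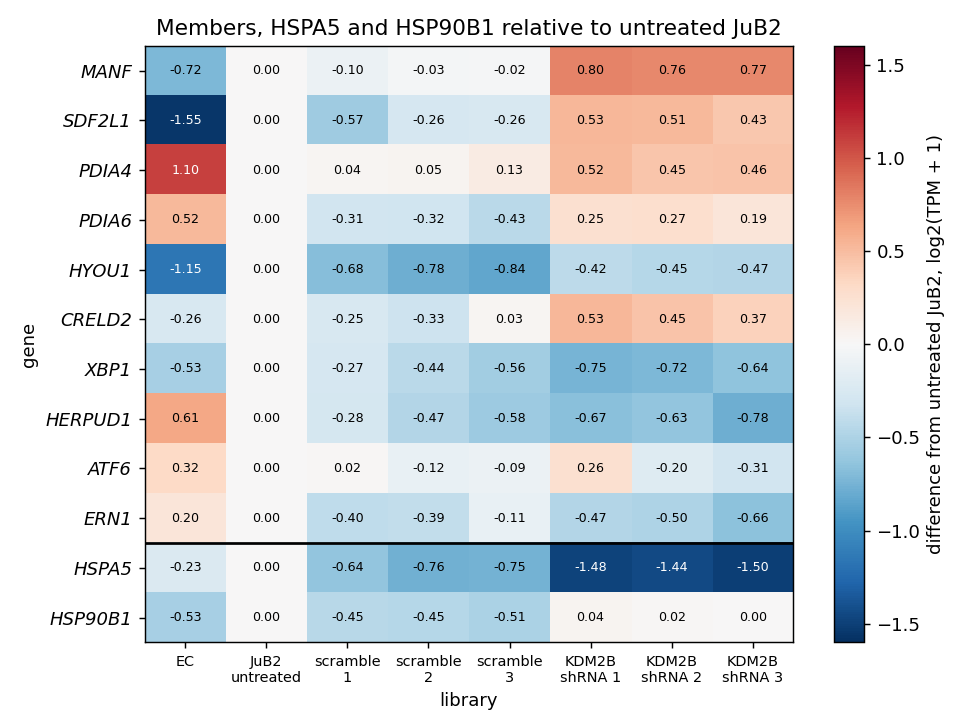
Difference of each library (columns) from untreated JuB2 on the log2(TPM + 1) scale for the 10 members and, below the line, HSPA5 and HSP90B1 (rows); red is higher and blue lower than untreated JuB2. MANF is above untreated JuB2 only in the KDM2B shRNA libraries (mean 0.78), whereas HYOU1, XBP1, HERPUD1, ERN1 and HSPA5 are below it in all 6 hairpin libraries.

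The library labelled EC had another balance of the same genes. The 10 members summed to 1907 TPM in EC and to 1973 TPM in untreated JuB2, so the total hardly differed. PDIA6 was the most abundant member in EC, at 704.8 TPM, followed by PDIA4 at 349.55 TPM. PDIA4, PDIA6, HERPUD1 (151.44 TPM), ATF6 (35.19 TPM) and ERN1 (16.22 TPM) were above all 7 JuB2 libraries. MANF (246.06 TPM), SDF2L1 (60.3 TPM) and HYOU1 (130.71 TPM) were below all 7. XBP1, at 182.45 TPM, and CRELD2, at 30.05 TPM, lay within the JuB2 range. Over all genes tested 19.3% lay above and 49.7% below the JuB2 libraries in EC.

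Against untreated JuB2 alone PDIA4 was at least 2-fold higher in EC (1.10 on the log2 scale) and SDF2L1 and HYOU1 at least 2-fold lower (-1.55 and -1.15). Of the 8805 genes with at least 10 TPM in the higher library, 13.7% were that much higher and 26.2% that much lower, and the median gene was at -0.34. The EC library is single, so these values have no error. Its markers differ from JuB2 as described above, and 11 of 12 genes of collagen folding in the ER, such as SERPINH1 at 1426.14 against 324.7 TPM, were also at least 2-fold higher in it.

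The wider pathway went both ways in the libraries labelled KDM2B shRNA. Its lists too were chosen with earlier results of these data known, so their counts are descriptions and no independent evidence. Each count below is to be read against all genes tested, of which 33.3% were higher and 17.6% lower, with a median of 0.16, and with trimmed-mean scaling 24.4% and 23.9%, with a median of 0.02. Among 13 tested luminal chaperones and co-chaperones 2 (15.4%) rose, 4 (30.8%) fell and 7 did not pass, with a median of 0.04. Of the co-chaperones of BiP, DNAJC3 and DNAJC10 fell, from 69.4 ± 7.6 to 45.2 ± 2.16 TPM and from 73.8 ± 1.22 to 36.2 ± 2.41 TPM (SD, n = 3 each; limma, adjusted p = 0.00161 and 7.69e-05). DNAJB11 was called higher (0.21, adjusted p = 0.046), but not with trimmed-mean scaling (0.06, adjusted p = 0.535) or when any 1 library was left out (adjusted p = 0.0503 to 0.131), and DNAJB9, DNAJC1 and SIL1 did not pass. Among 16 further disulfide isomerases and ER oxidases 6 rose (37.5%, near the 33.3% of all genes) and 5 fell (31.2%), with a median of 0.08, but trimmed-mean scaling gave 2 rises and 6 falls. ERO1A and ERO1B, the oxidases that recharge disulfide isomerases, fell from 66.3 ± 3.26 to 44.8 ± 2.22 TPM and from 9.54 ± 0.386 to 4.09 ± 0.648 TPM, while ERP29 rose from 85.2 ± 0.671 to 112 ± 3.08 TPM (0.39 on the log2 scale, 0.24 with trimmed-mean scaling).

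In the calnexin cycle and N-glycosylation 6 of 12 genes rose, against 33.3% of all genes, and 2 (16.7%, against 17.6%) fell, with a median of 0.08. Under trimmed-mean scaling 5 were higher and 5 lower (41.7% each), with a median of -0.08. Calreticulin (CALR), a lectin chaperone, rose from 409.8 ± 11.9 to 561 ± 13.5 TPM, and the oligosaccharyltransferase subunits RPN1 and STT3A rose from 412 ± 8.28 to 637 ± 10.2 and from 194 ± 16.8 to 314 ± 6.69 TPM. With TPM as deposited the subunits RPN2 and STT3B did not pass (limma, adjusted p = 0.478 and 0.118), while DDOST was called higher (adjusted p = 0.027). Calnexin (CANX) did not pass (limma, adjusted p = 0.189). GANAB, the catalytic subunit of glucosidase II, which trims glucose from new glycans, fell from 73.9 ± 0.734 to 15.3 ± 0.945 TPM (-2.20 ± 0.08; limma, adjusted p = 7.38e-06).

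Genes of ER-associated degradation, the pathway of HERPUD1, rose in 12 of 19 tested genes (63.2%, against 33.3% of all genes) and fell in 3 (15.8%, against 17.6%), with a median of 0.30 against 0.16. With trimmed-mean scaling 7 rose (36.8%, against 24.4%) and 3 fell (15.8%, against 23.9%), with a median of 0.15. The ubiquitin ligase SYVN1 rose from 17.7 ± 1.25 to 34.1 ± 1.79 TPM while its partner SEL1L fell from 75.0 ± 7.98 to 35.8 ± 3.1 TPM (limma, adjusted p = 0.000265 and 0.000197). The ratio of SYVN1 to SEL1L was 0.209, 0.272 and 0.232 in scramble and 0.884, 1.0 and 0.978 with KDM2B shRNA. EDEM1, which hands misfolded glycoproteins to this pathway, fell from 129 ± 3.84 to 67.7 ± 0.488 TPM. VCP, the ATPase that extracts substrates from the membrane, rose from 178 ± 11.8 to 284 ± 5.62 TPM.

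Of 17 genes of the translocon, signal peptidase and signal recognition, by which proteins enter the ER, 10 rose (58.8%, against 33.3% of all genes) and 2 fell (11.8%, against 17.6%). With trimmed-mean scaling 6 were higher (35.3%, against 24.4%) and 4 lower (23.5%, against 23.9%). SEC61A1, the pore of the translocon, rose from 272 ± 1.71 to 456 ± 8.75 TPM. Of 16 genes of COPII export and retrieval 8 rose (against 33.3% of all genes) and 0 fell in limma, and the other 8 did not pass. With trimmed-mean scaling 5 were higher (31.2%, against 24.4%) and 3 lower (18.8%, against 23.9%). The KDEL receptors KDELR2 and KDELR3, which return luminal proteins to the ER, rose from 221 ± 17.0 to 321 ± 23.4 and from 119 ± 9.35 to 185 ± 18.8 TPM. Of 11 genes of collagen folding 4 rose and 2 fell (36.4% and 18.2%, near the shares of all genes), with 2 higher and 3 lower under trimmed-mean scaling. PLOD2, a lysyl hydroxylase, fell from 67.2 ± 3.36 to 20.8 ± 3.08 TPM.

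Most tested genes of the PERK and ATF4 arm fell. Of 11 tested genes 8 were lower (72.7%, against 17.6% of all genes), 0 were higher and 3 did not pass, with a median of -0.72, and 10 were lower with trimmed-mean scaling (90.9%, against 23.9%). This list was written with the fall of several of its genes already known from these data, so its count is a description and no independent evidence of its direction. TRIB3, a pseudokinase that limits ATF4 signalling, fell from 313 ± 15.7 to 105 ± 9.93 TPM and DDIT4, an inhibitor of mTORC1, from 78.0 ± 10.3 to 21.0 ± 2.73 TPM. ATF4 itself was at 976.06, 961.54 and 932.54 TPM in scramble, compared with 1062.23, 1011.63 and 958.27 TPM with KDM2B shRNA and did not pass (limma, adjusted p = 0.21). DDIT3 (CHOP), the pro-apoptotic factor of this arm, was at 142.29, 134.35 and 124.51 TPM against 87.52, 91.05 and 110.93 TPM (-0.47 ± 0.10; limma, adjusted p = 0.00616).

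Among 14 tested sensors and transducers other than the members 4 rose and 3 fell (28.6% and 21.4%, near the 33.3% and 17.6% of all genes), with 4 higher and 5 lower under trimmed-mean scaling. EIF2AK3, which encodes PERK, was at 12.93, 15.29 and 17.17 TPM in scramble, compared with 17.5, 15.63 and 12.92 TPM with KDM2B shRNA, and its groups overlapped (limma, adjusted p = 0.932). NFYC, a subunit of the NF-Y factor that binds beside ATF6 at ER stress elements, rose from 16.0 ± 3.0 to 30.3 ± 3.76 TPM. Of the other NF-Y subunits, NFYA rose from 8.67 ± 0.943 to 15.4 ± 3.15 TPM. NFYB was at 58.0 ± 11.6 against 39.9 ± 10.4 TPM, with overlapping groups, and did not pass (limma, adjusted p = 0.0629). TRAF2, an adaptor of IRE1, rose from 21.8 ± 1.89 to 40.8 ± 2.27 TPM. CREB3L1, a relative of ATF6 that is also cut in the Golgi, fell from 46.4 ± 2.97 to 24.2 ± 0.305 TPM.

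**Figure D5:**
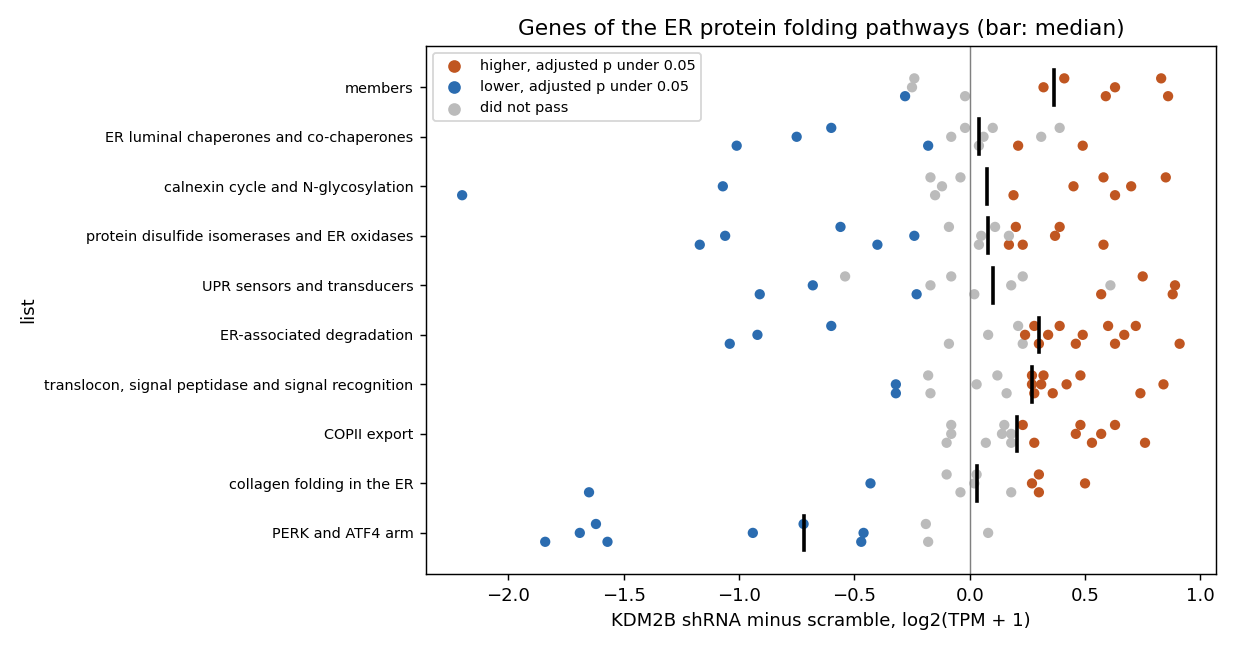
Difference between KDM2B shRNA and scramble on the log2(TPM + 1) scale (horizontal axis) for each tested gene of the members and 9 pathway lists (rows); orange and blue points passed the adjusted threshold of 0.05, grey ones did not, and black bars are medians. The median is 0.36 for the members and -0.72 for the PERK and ATF4 arm.

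Paralogs of the members allow a comparison of close relatives. SDF2, the constitutive relative of SDF2L1, rose from 83.5 ± 4.32 to 123 ± 6.44 TPM (0.56 ± 0.07; limma, adjusted p = 0.000552), and HERPUD2 rose from 21.4 ± 4.36 to 35.4 ± 4.43 TPM (0.72 ± 0.17; adjusted p = 0.00915). HERPUD1, the stress-induced relative of HERPUD2, was at 0.835 of its scramble level while HERPUD2 was at 1.66 of its own. The difference of HERPUD1 did not pass (limma, adjusted p = 0.0538), so a fall of HERPUD1 is not established. The abundant disulfide isomerase P4HB was at 347.4, 354.24 and 323.91 TPM in scramble, compared with 371.05, 344.4 and 347.08 TPM with KDM2B shRNA, with overlapping groups, and did not pass (limma, adjusted p = 0.474). Its difference of 0.05 was -0.10 with trimmed-mean scaling. PDIA3 differed by 0.17 (adjusted p = 0.0266), but it did not pass with trimmed-mean scaling (0.02, adjusted p = 0.772) or without scramble library 2 or 3 or library 1 or 2 labelled KDM2B shRNA (adjusted p = 0.059 to 0.0815). CDNF, the paralog of MANF, was at 1.48 to 2.84 TPM in the 6 hairpin libraries, and ATF6B, at 20.36 to 29.36 TPM, did not pass (adjusted p = 0.136). ERN2 was too low to be tested, at most at 1.54 TPM.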

How the data were processed

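The authors deposited 1 TPM value per gene and library. The submitters' processing notes name STAR, RSEM and the build CanFam3.1 without roles, and per the file headers the columns are RSEM gene results. Read depth, strand use and the assignment of shared reads are unknown. PDIA4, PDIA6 and CRELD2 overlap another gene in the RefSeq table of UU_Cfam_GSD_1.0, a different build, so no coordinates are given. Sequences were not analysed here.

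The 3 KDM2B shRNA and 3 scramble libraries, grouped by the labels, were fitted in limma 3.58.1 (R 4.3.3, intensity trend) on log2(TPM + 1), which understates folds of low genes. Genes with at least 1 TPM in at least 3 of the 6 libraries were tested, with Benjamini-Hochberg adjustment over all 11485 and a threshold of 0.05. The test was tried on simulated data. Members, lists and tests were chosen with earlier results of these data known. Beside members, KDM2B and paralogs, genes were named from up to 4 per list with the smallest p at a mean of at least 5 TPM. ATF4, EIF2AK3, DDIT3, DNAJB11, NFYA, NFYB, CANX, RPN2, STT3B, DDOST, PRKCSH, other BiP co-chaperones that did not pass and neighbouring genes were named after their values were seen. Figures were drawn with matplotlib 3.10.9. Alternatives were other scalings, filters, pseudocounts, no trend, a replicate block, a stricter threshold and leaving out each library.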

Additional observations from a re-analysis of the deposited data

How the results depend on the processing

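MANF, SDF2L1, PDIA4, PDIA6, HYOU1 and CRELD2 kept their direction and passed in all 16 alternatives; the differences of HYOU1 ranged from 0.17 to 0.36 and those of MANF from 0.67 to 0.84. The 1 member called lower became 2 with trimmed-mean scaling, 3 with quantile normalization, 2 without the mitochondrially encoded genes, 0 without an intensity trend, 2 with the replicate block, 0 at a threshold of 0.01, and 0 to 2 when a replicate was left out. Samples with the same replicate number did not deviate together (r = 0.0339, 0.0115 and -0.0464). No shared effect of the number was thus seen, but this cannot tell whether the numbers were meant to pair samples. With the replicate block 3578 genes were higher and 1870 lower in place of 3823 and 2027, and HERPUD1 passed (limma, adjusted p = 0.0472). A threshold of 0.01 left 2544 genes higher and 1313 lower. Of the genes called with TPM as deposited 65.4% were higher, against 50.5% with trimmed-mean scaling, 51.5% with quantile normalization and 55.6% without mitochondrially encoded genes. When a replicate was left out the difference of ATF6 ranged from -0.19 to 0.09, that of CDNF from -0.01 to 0.31 and that of EIF2AK3 from -0.08 to 0.13. PDIA3 was at -0.01 and CDNF at -0.14 with quantile normalization, and P4HB at -0.10, -0.02 and -0.05, ATF4 at -0.07, -0.08 and -0.03 and EIF2AK3 at -0.12, -0.13 and -0.08 with trimmed-mean scaling, quantile normalization and without mitochondrially encoded genes. Against the scramble mean 2 members were at least 2-fold higher in EC, PDIA4 (1.03 on the log2 scale) and HERPUD1 (1.06), and 1 lower, SDF2L1 (-1.19). The share of all genes for that comparison is not given here, so these counts cannot be set against it. The cause of these changes was not tested. A planned search of promoters was not run. The number of reads is unknown, so the counting error of low values such as those of ERN1 cannot be given.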

Other observations

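The genes whose levels followed a member most closely over the 8 libraries were found among 8702 other genes, by the root mean square difference of log2(TPM + 1) profiles centred on scramble. The libraries share their TPM total, and with so many genes some are near by number alone. For MANF the nearest were SLBP, PES1 and ETV2, at 0.06, 0.06 and 0.07 log2 units. PDIA6 had SLC25A4, the COPII coat gene SEC24C and the protease gene FURIN at 0.06, 0.06 and 0.07. HYOU1 had the ER membrane protein gene TMBIM6, at 228.61, 228.02 and 207.21 TPM in scramble, 302.99, 289.98 and 294.58 TPM with KDM2B shRNA and 328.5 TPM in untreated JuB2, followed by SCAP, which escorts the sterol-regulated factors out of the ER. For SDF2L1 the nearest was CERS4 (0.08), for PDIA4 MSN (0.07) and for CRELD2 TJAP1 (0.07). XBP1 was nearest to PPP2R2A (0.09), HERPUD1 to SCD (0.10), ATF6 to GRK5 (0.09) and ERN1 to SBF2 (0.09). The nearest gene was no member in each of these 10 cases.

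Of 10 tested genes next to a member in RefSeq order, 5 were higher, 1 was lower and 4 did not pass. Over all 11485 genes tested 33.3% were higher and 17.6% lower, and so small a count cannot be told apart from those shares. LOC608641, next to SDF2L1, was higher by 0.67 on the log2 scale (limma, adjusted p = 0.00168), in the direction of SDF2L1, and TEX2, next to ERN1, was higher by 0.54 (adjusted p = 0.0119). CCDC117 and ZNRF3, on either side of XBP1, were higher by 0.99 and 0.71 on the log2 scale (limma, adjusted p = 0.00192 and 0.0155), where XBP1 fell, and ZNRF3 did not pass without library 3 labelled KDM2B shRNA (adjusted p = 0.0536). VPS11, beside HYOU1, rose by 0.75 (adjusted p = 0.000168), and SLC37A4, on its other side, was at -0.53 (adjusted p = 0.0459, up to 0.119 without scramble library 1). ALG12, beside CRELD2, stood at 46.01, 44.02 and 45.02 TPM in scramble, compared with 49.38, 42.75 and 49.96 TPM with KDM2B shRNA, and did not pass (adjusted p = 0.537).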
